A study of Macaca mulatta with 13 samples.

Results

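Splicing factors and heterogeneous nuclear ribonucleoproteins (hnRNPs) were followed in blood mononuclear cells of rhesus macaques from 3 rearing conditions. Genes were taken by symbol: every probe set (the group of short oligonucleotides that reports 1 transcript) paired with a single symbol that begins with HNRNP, SRSF, SF3A, SF3B, SNRP, PRPF or U2AF, with a number after SRSF, SF3A, SF3B and PRPF. The rule found 52 genes of 14132 with a single symbol on the array, and 121 probe sets of 52707. They comprised 16 hnRNP genes, 8 SR protein genes, 8 genes of small nuclear ribonucleoprotein (snRNP) proteins, 3 U2AF genes, 7 SF3A and SF3B genes and 10 PRPF genes. No measured value entered the choice by symbol. Each gene was read at the probe set with the highest mean over all 13 arrays, and 51 genes passed the filter on low values. SRSF12, whose probe set averaged 4.69 on the log2 scale, did not pass and was not tested. HNRNPA2B1, SRSF1, SRSF2, SRSF3, SRSF7, SF3B1 and PRPF4B were not analysed here.

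The series asks whether gene expression in leukocytes depends on early rearing. Total RNA of peripheral blood mononuclear cells, the lymphocytes and monocytes of the blood, was hybridised to 1 Affymetrix rhesus genome array for each animal. All animals were 4 months old, and 4 were surrogate-peer reared, 4 peer reared and 5 maternally reared, with no further account of the rearing in the labels. The 8 surrogate-peer and peer animals are called non-maternal below. The labels name no sex, collection day or scan batch. The p-values set differences between group means against the spread between animals within groups. Whatever else differed between the groups enters those differences.

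Splicing removes introns from a transcript and joins its exons. The U1 snRNP and the U2AF proteins first mark the ends of an intron, the U2 snRNP with its SF3A and SF3B subunits engages the branch point, and a tri-snRNP carrying PRPF proteins then joins to form the catalytic spliceosome. SR proteins mostly favour the use of nearby exons, hnRNPs often oppose it, and in leukocytes the balance between them shapes the transcripts of surface receptors such as CD45.

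Values are log2 expression values, so that a difference of 1 is a doubling. They can be set side by side between animals at 1 probe set but not between probe sets. Array medians over all non-control probe sets were 5.995 to 6.044 in non-maternal and 6.048 to 6.061 in maternal arrays. The SD over all values was 2.122 to 2.151 in non-maternal arrays and 2.088 to 2.112 in maternal ones, without overlap. The log2 ratio of 3' to 5' signal at actin and GAPDH control probe sets, a measure of RNA quality and labelling, ran from 1.31 to 1.44 in surrogate-peer, from 1.38 to 1.74 in peer and from 1.56 to 2.22 in maternal arrays. Of the marker genes listed for T cells 9 of 18 were tested, and for B cells 9 of 14. For NK and cytotoxic cells 14 of 16 were tested and for monocytes 12 of 15. Markers of lymphocytes and monocytes were thus each represented. A probe set with a single symbol existed for only 9 T cell, 9 B cell, 14 NK and cytotoxic and 13 monocyte markers. In RNA of mixed cells, fewer cells of a type and less RNA per cell cannot be told apart.

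More splicing genes were higher than lower in animals reared without their mothers. In the non-maternal animals against the maternal ones, 7 of the 51 genes rose and 0 fell (limma, Benjamini-Hochberg adjusted p under 0.05 over the 26352 tested probe sets). They were SRSF5, SRSF6 and SRSF10 among SR proteins, HNRNPH3 and HNRNPM among hnRNPs, PRPF38A and SF3A3. The 7 make 13.7% of the genes tested, beside 6.30% of all 9657 tested genes called higher, 1.69% called lower and 7.98% called in either direction. The median log2 fold change of the 51 genes was 0.19, beside 0.005 over all tested genes. A positive log2 fold change was found for 44 of 51 splicing genes (86.3%) and for 50.7% of all tested genes. With the mean of each rearing group taken out, the splicing genes varied together. Their median pairwise correlation within groups was 0.335, beside 0.035 over all tested genes. Their 51 values come from the same animals and are not 51 independent observations, so the share of positive values is descriptive. The same holds for the counts of positive values given below.

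Splicing genes gave bright probe sets, and bright genes as a whole sat higher in non-maternal animals. The median of the 13-array means was 10.20 over splicing genes and 8.30 over all tested genes. Among the 6010 genes with a mean above 7.716, 60.8% had a positive log2 fold change, the median was 0.075, 8.10% were called higher and 1.61% lower. Of the 47 splicing genes above that level, 40 (85.1%) were positive, the median was 0.19 and 6 (12.8%) were called higher. The part of brightness in the excess was not tested further.

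**Figure D1:**
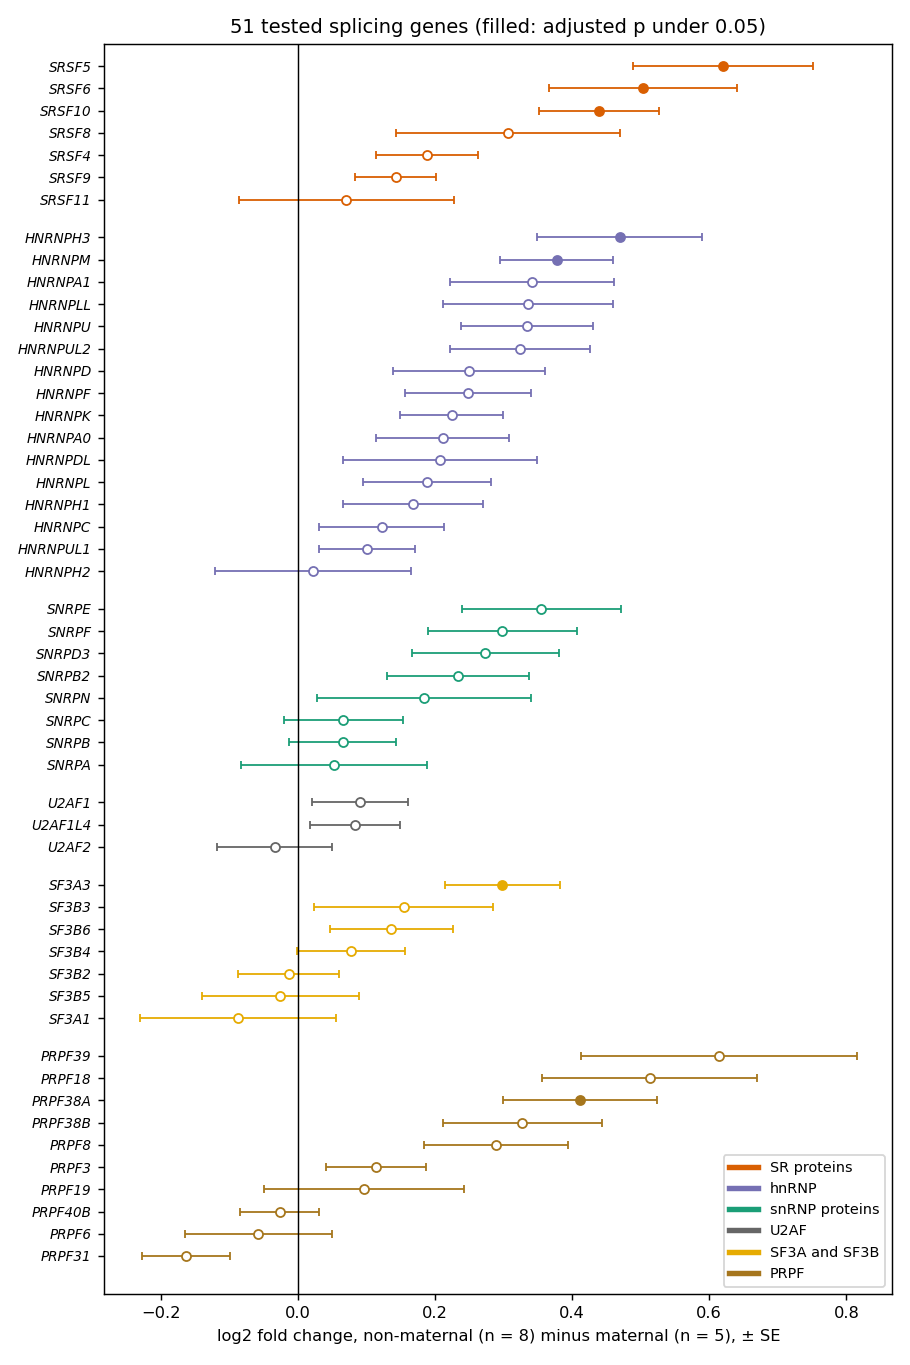
Log2 fold change ± SE of the 51 tested splicing genes, non-maternal (n = 8) minus maternal (n = 5) animals, with 1 row per gene, grouped and coloured by family; filled points have an adjusted p under 0.05. Of the 51 points, 44 lie right of 0, and the 7 filled points lie between 0.30 and 0.62.

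The SR proteins, which carry a serine and arginine rich tail and bind exonic enhancers, held the most calls of any family. Among the 7 tested SR genes 3 rose (42.9%), beside 6.30% of all tested genes called higher. All 7 had a positive log2 fold change, and their median was 0.31.

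SRSF5 is an SR protein that stimulates exon inclusion. Its log2 values were 11.54, 12.09, 12.49 and 12.11 in surrogate-peer animals, 12.24, 12.18, 12.12 and 12.05 in peer animals, and 11.63, 11.63, 11.47, 11.24 and 11.45 in maternal animals. All peer animals and 3 of 4 surrogate-peer animals lay above every maternal animal, while surrogate-peer animal 1 lay inside the maternal range. The gene was 1.54-fold higher in non-maternal animals (log2 fold change 0.62 ± 0.13 SE, limma adjusted p = 0.0246). Its 3 tested probe sets were all called, with log2 fold changes from 0.45 to 0.87.

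SRSF10 is an SR protein known in human and mouse cells as a repressor of splicing when it loses its phosphates, as during heat shock and mitosis. Log2 values were 9.12, 9.22, 9.45 and 9.19 in surrogate-peer animals, 9.11, 9.16, 9.16 and 9.19 in peer animals, and 8.88, 8.91, 8.82, 8.44 and 8.75 in maternal animals. The groups did not overlap: all 8 non-maternal animals lay above the highest maternal one. The log2 fold change was 0.44 ± 0.09 (SE, limma adjusted p = 0.0231), and the other tested probe set of the gene gave 0.39 with the same adjusted p.

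SRSF6, another activator that binds exonic enhancers, had log2 values of 11.51, 11.45, 11.95 and 11.55 in surrogate-peer animals, 11.61, 11.66, 11.48 and 11.58 in peer animals, and 11.62, 10.96, 11.22, 10.69 and 10.99 in maternal animals. Maternal animal 1 lay among the non-maternal ones, and the other 4 maternal animals lay below all of them. Its log2 fold change was 0.50 ± 0.14 (SE, limma adjusted p = 0.0440), and its other tested probe set, at 0.37, was not called (adjusted p = 0.0920). The SR genes that did not pass were SRSF8 at 0.31, SRSF4 at 0.19, SRSF9 at 0.14 and SRSF11 at 0.07.

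**Figure D2:**
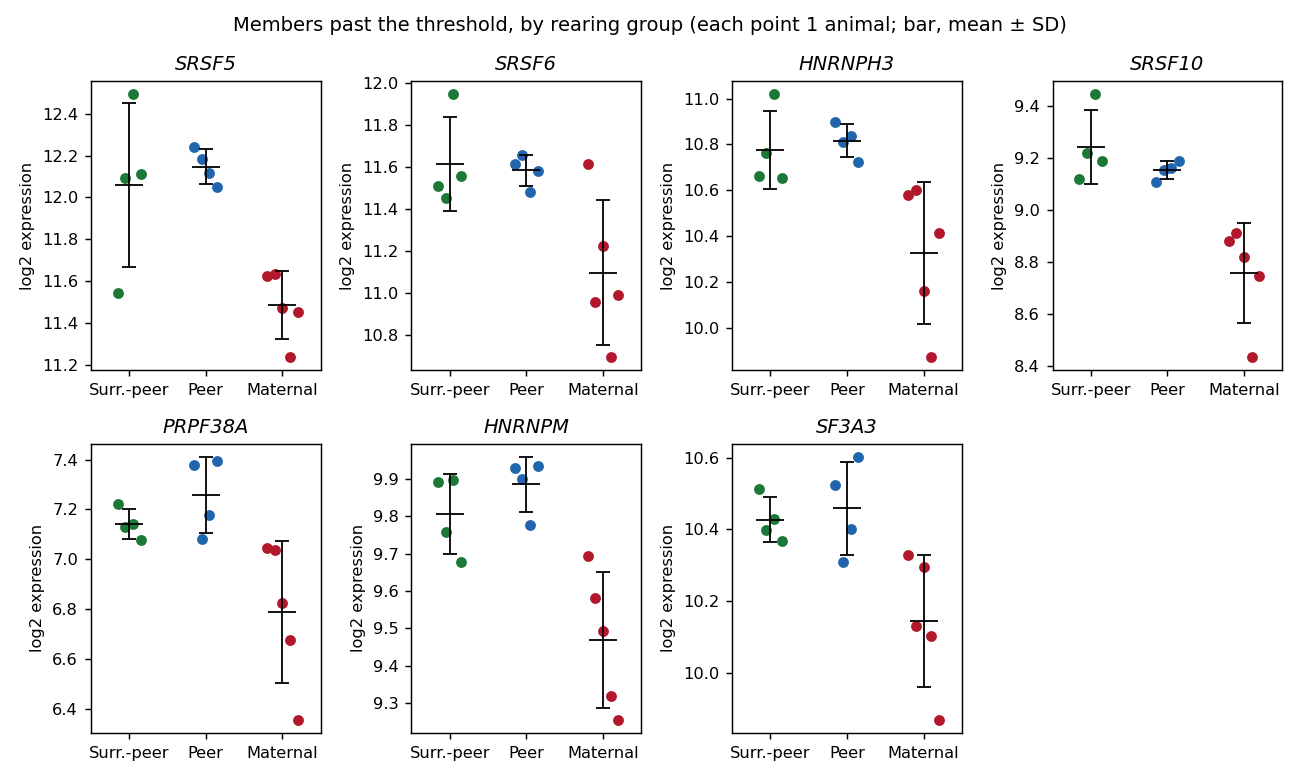
Log2 expression of the 7 splicing genes with an adjusted p under 0.05 in surrogate-peer (n = 4), peer (n = 4) and maternal (n = 5) animals, with 1 panel per gene and its own axis; each point is 1 animal and bars show the mean ± SD. All 8 non-maternal points lie above all 5 maternal points for SRSF10, HNRNPH3 and PRPF38A.

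The hnRNPs coat nascent transcripts and, besides splicing, act in export, stability and translation of mRNA. Among the 16 tested hnRNP genes 2 rose and 0 fell, 12.5% beside 7.98% of all tested genes called in either direction. All 16 log2 fold changes were positive, and the median was 0.24.

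HNRNPH3 belongs to the H and F group, which binds runs of G. Its log2 values were 10.66, 10.76, 11.02 and 10.66 in surrogate-peer animals, 10.90, 10.81, 10.84 and 10.72 in peer animals, and 10.58, 10.60, 10.16, 9.87 and 10.41 in maternal animals. The groups did not overlap, and maternal animals spread more widely (SD 0.31) than surrogate-peer (SD 0.17) and peer animals (SD 0.07). The gene was 1.38-fold higher in non-maternal animals (log2 fold change 0.47 ± 0.12 SE, limma adjusted p = 0.0384). Its other tested probe sets had log2 fold changes between 0.16 and 0.67 and were not called.

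HNRNPM, a regulator of alternative exons, had log2 values of 9.89, 9.76, 9.90 and 9.68 in surrogate-peer animals, 9.93, 9.90, 9.78 and 9.94 in peer animals, and 9.70, 9.58, 9.49, 9.32 and 9.26 in maternal animals. Surrogate-peer animal 4 lay below maternal animal 1, and the other 7 non-maternal animals lay above every maternal animal. The log2 fold change was 0.38 ± 0.08 (SE, limma adjusted p = 0.0262). That probe set is marked as sharing probes between transcripts, and the other tested one, without the mark, gave 0.15 with an adjusted p of 0.292.

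The best known hnRNPs did not pass the threshold at their brightest probe sets. HNRNPU, a nuclear scaffold protein that binds RNA and chromatin, came nearest at a log2 fold change of 0.33 (limma adjusted p = 0.0509). HNRNPK, which binds C-rich sequence through its KH domains, had 0.22 (adjusted p = 0.0801), and HNRNPA1, a repressor of exons, had 0.34 (adjusted p = 0.0916). HNRNPA1 was read by a single probe set of the kind whose probes can also match other transcripts, so its value is uncertain. The brightest probe sets of HNRNPM, HNRNPC, HNRNPD, HNRNPDL, SNRPE, SNRPC, SF3B4 and SF3B6 carry such a mark too, with the same uncertainty. HNRNPC, which binds uridine tracts, had 0.12 (adjusted p = 0.384) and HNRNPL, which binds CA repeats, had 0.19 (adjusted p = 0.197). The limma fit gave HNRNPUL2, a relative of HNRNPU, 0.32 (adjusted p = 0.0666). HNRNPA0, HNRNPD and HNRNPH1 were also uncalled at their brightest probe sets and are given with their other probe sets further on. Uncalled as well were HNRNPF at 0.25, HNRNPDL at 0.21, HNRNPUL1 at 0.10 and HNRNPH2 at 0.02.

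HNRNPLL is the hnRNP known from mouse and human lymphocytes for directing the skipping of CD45 exons on T cell activation. Log2 values at its brightest probe set were 8.48, 9.18, 9.25 and 8.92 in surrogate-peer animals, 8.69, 8.87, 8.66 and 8.40 in peer animals, and 8.37, 8.48, 8.41, 8.43 and 8.65 in maternal animals. The highest 3 values were all from surrogate-peer animals, and the groups overlapped. The log2 fold change of non-maternal against maternal animals was 0.34 (limma adjusted p = 0.102), while another probe set of the gene gave 0.53 and was called (adjusted p = 0.0245) and the remaining one gave 0.43.

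The snRNP proteins, which include the Sm proteins that form a ring around each spliceosomal RNA, had 0 of 8 genes called in either direction. Over all tested genes 7.98% were called. An unadjusted p under 0.05 (limma) was found for 4 of the 8, beside 29.7% of all tested genes. All 8 log2 fold changes were positive, with a median of 0.21 and a range of 0.05 to 0.36. The highest was that of the Sm protein SNRPE, 0.36 (limma adjusted p = 0.0739), followed by its ring partners SNRPF at 0.30 and SNRPD3 at 0.27. SNRPE had log2 values of 11.92, 11.79, 11.97 and 11.73 in surrogate-peer animals, 11.94, 11.85, 11.74 and 12.15 in peer animals, and 11.83, 11.59, 11.70, 11.44 and 11.09 in maternal animals. Maternal animal 1 lay inside the non-maternal range and the other 4 lay below it. SNRPB, the core Sm protein, had 0.07, and its close paralog SNRPN had 0.18 at the brightest probe set and 0.36 at the other. SNRPC and SNRPA, both specific to the U1 particle, had 0.07 and 0.05, and SNRPB2, of the U2 particle, had 0.23.

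The U2AF proteins, which recognise the 3' end of an intron, had 0 of 3 genes called and 0 of 3 at an unadjusted p under 0.05 (limma). Over all tested genes, 7.98% were called and 29.7% had such a p. U2AF1, which contacts the terminal AG, had a log2 fold change of 0.09, U2AF1L4, its relative, had 0.08, and U2AF2, which binds the polypyrimidine tract, had -0.03. U2AF1 ranged from 11.38 to 11.58 in non-maternal and from 11.30 to 11.60 in maternal animals.

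SF3A and SF3B, the subunits of the U2 particle that hold the branch point, had 1 of 7 genes called higher. That is 14.3%, beside 6.30% of all tested genes. Of the 7 log2 fold changes 4 were above 0, and the median was 0.08. SF3A3, the subunit that rose, had log2 values of 10.51, 10.40, 10.43 and 10.37 in surrogate-peer animals, 10.52, 10.31, 10.40 and 10.60 in peer animals, and 10.33, 10.13, 10.30, 10.10 and 9.87 in maternal animals. Peer animal 2 lay just below maternal animal 1, and the other 7 non-maternal animals lay above all maternal ones. The gene was 1.23-fold higher (log2 fold change 0.30 ± 0.08 SE, limma adjusted p = 0.0492), close to the threshold, and its other tested probe sets gave 0.27 and 0.19. SF3A1, which sits in the same complex, had -0.09 and a range of -0.10 to 0.21 over its 8 tested probe sets. SF3B2 had -0.01, SF3B3 had 0.15, SF3B4 had 0.08, SF3B6, which lies near the branch point adenosine, had 0.14, and SF3B5 had -0.03.

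The PRPF genes code for proteins of the tri-snRNP and of the steps around activation. They had 1 of 10 called higher and 0 lower, beside 6.30% and 1.69% of all tested genes. Of the 10 log2 fold changes 7 were positive, beside 50.7% of all tested genes. The median was 0.20, and the range, -0.16 to 0.61, was the widest of the families. PRPF38A, which joins the spliceosome before activation, had log2 values of 7.22, 7.13, 7.14 and 7.08 in surrogate-peer animals, 7.38, 7.08, 7.18 and 7.39 in peer animals, and 7.05, 7.04, 6.83, 6.68 and 6.36 in maternal animals. All non-maternal animals lay above all maternal ones. Its single tested probe set had a log2 fold change of 0.41 ± 0.11 (SE, limma adjusted p = 0.0447).

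Among the PRPF genes that did not pass, PRPF39, a partner of the U1 particle, had a log2 fold change of 0.61 (limma adjusted p = 0.0736), nearly as high as that of SRSF5 but with a wider spread. Its log2 values were 6.78, 7.31, 7.78 and 7.16 in surrogate-peer animals, 7.33, 7.38, 7.26 and 7.20 in peer animals, and 7.08, 7.25, 6.23, 6.17 and 6.57 in maternal animals. Maternal animals 3, 4 and 5 lay below all others, and maternal animals 1 and 2 lay among the non-maternal ones. PRPF18, a factor of the late catalytic step, had 0.51 (adjusted p = 0.0616), PRPF38B, a relative of PRPF38A, had 0.33, and PRPF3, of the tri-snRNP, had 0.11. PRPF8, the scaffold of the catalytic centre, had 0.29 (adjusted p = 0.0984), and PRPF19, the ubiquitin ligase of the activation complex, had 0.10. The lowest value of all 51 genes was that of PRPF31, a tri-snRNP protein, at -0.16 (adjusted p = 0.119). PRPF31 had log2 values of 9.22, 8.995, 9.12 and 9.07 in surrogate-peer animals, 9.25, 9.25, 9.17 and 9.28 in peer animals, and 9.20, 9.34, 9.33, 9.50 and 9.29 in maternal animals. Maternal animal 1 lay inside the non-maternal range and the other 4 lay above it. The remaining negative values were -0.06 for PRPF6 and -0.03 for PRPF40B.

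Of the 51 genes, 3 (5.88%) had all 8 non-maternal animals above all 5 maternal ones, beside 1.58% of all tested genes, and 0 had them all below, beside 1.06% of all tested genes. An unadjusted p under 0.05 was found for 26 of 51 (51.0%), beside 29.7% of all tested genes.

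The probe sets of a gene did not always give the same result. Of 107 tested splicing probe sets, 15 (14.0%) were called higher and 0 lower, beside 6.64% and 1.35% of all 26352 tested probe sets. In 12 genes at least 1 probe set was called, in 7 of them the brightest and in 5 only another one. The 5 were HNRNPA0, HNRNPD, HNRNPH1, HNRNPLL and SF3B5. HNRNPA0 had a log2 fold change of 0.21 at its brightest probe set and 0.47 at another (limma adjusted p = 0.0469). HNRNPH1, which binds runs of G, had 0.17 and 0.41 (adjusted p = 0.0492). The called probe set of HNRNPA0 is marked as sharing probes between transcripts, and its brightest is not.

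HNRNPD, which binds AU-rich elements and acts in mRNA turnover, had 5 tested probe sets that ran from -0.23 to 0.48, the highest called (limma adjusted p = 0.0271) and the brightest at 0.25. SF3B5 had -0.03 at its brightest probe set, 0.36 at a called one (adjusted p = 0.0391) and 0.36 at the third (adjusted p = 0.0816). Among the 29 genes with more than 1 tested probe set, 11 had values of both signs. Of the 121 splicing probe sets, 19 carry a suffix that marks probes shared between transcripts.

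**Figure D3:**
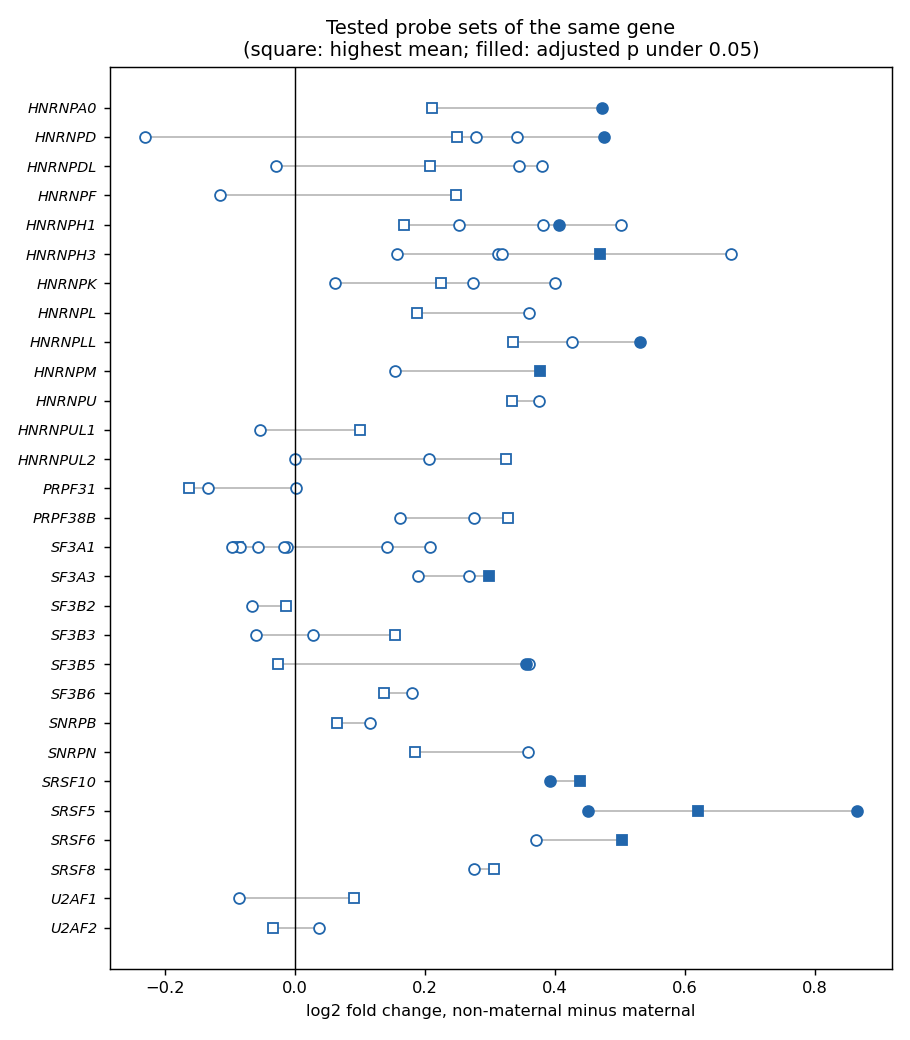
Log2 fold change, non-maternal minus maternal, of every tested probe set of the 29 splicing genes with more than 1; the square is the probe set with the highest mean, circles are the others and filled symbols have an adjusted p under 0.05. The probe sets of SRSF5 are all filled, while those of HNRNPD and SF3B5 lie on both sides of 0.

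Against the maternal animals, each non-maternal group on its own gave no call among splicing genes. In surrogate-peer animals 0 of 51 genes were called, where 0.00% of all tested genes were, and 16 had an unadjusted p under 0.05 (limma), beside 20.1% of all tested genes. The median log2 fold change was 0.18, and 42 of 51 values were positive, beside 50.8% of all tested genes. The smallest p was that of SRSF10 at 0.48 ± 0.10 (SE, limma adjusted p = 0.0764), followed by SRSF5 at 0.58, HNRNPM at 0.34, HNRNPLL at 0.49 and SRSF6 at 0.52. On the negative side the smallest p values belonged to PRPF31 at -0.23, U2AF2 at -0.12, SF3B5 at -0.06, PRPF40B at -0.03 and PRPF6 at -0.02.

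In peer animals 0 of 51 genes were called, beside 0.197% of all tested genes, and 20 had an unadjusted p under 0.05 (limma), beside 25.8% of all tested genes. The median was 0.21, and 46 of 51 values were positive, beside 50.9% of all tested genes. SRSF5 had a log2 fold change of 0.66 ± 0.15 (SE, limma adjusted p = 0.0586), HNRNPM 0.42, SRSF10 0.39, PRPF38A 0.47 and HNRNPH3 0.49. The negative values were -0.17 for SF3A1, -0.10 for PRPF31, -0.09 for PRPF6, -0.03 for PRPF40B and -0.01 for SF3B2. Both comparisons share the 5 maternal animals, so their values are not independent.

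Surrogate-peer animals set against peer animals gave 0 of 51 calls, where 0.00% of all tested genes were called, and 0 genes had an unadjusted p under 0.05 (limma), beside 1.87% of all tested genes. The median log2 fold change was -0.03, beside -0.008 over all tested genes, with 17 positive and 34 negative values. HNRNPLL had the highest value, 0.30 ± 0.15 (SE), and SF3B6, SF3A1, SRSF10 and HNRNPUL2 had 0.11, 0.15, 0.09 and 0.10. U2AF2 had -0.16, PRPF31 -0.14, HNRNPC -0.15, SF3B4 -0.11 and SNRPC -0.12. The adjusted p was 1 for all 51 genes (limma). With 4 animals in each group these p-values do not show that the groups were alike. The limma F test over the 3 groups called 0 of 51 genes, beside 0.0311% of all tested genes, and 20 of 51 (39.2%) had an unadjusted p under 0.05, beside 20.3% of all tested genes. The smallest adjusted p of that test among splicing genes was 0.0737.

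The difference was not even across animals. The median deviation of the 51 genes from their own means over 13 arrays was 0.05, 0.04, 0.11 and 0.003 in surrogate-peer animals, 0.14, 0.10, -0.001 and 0.11 in peer animals, and 0.04, -0.04, -0.04, -0.19 and -0.28 in maternal animals. Maternal animals 4 and 5 were lowest, while maternal animal 1 lay within the non-maternal range. Maternal animal 5 was also low over all tested genes, with a median deviation of -0.10, where the other 12 arrays lay between -0.02 and 0.04. Its mean correlation with the other arrays, 0.975, was the lowest. Maternal animal 4 had 0.03 over all tested genes. In surrogate-peer animals 36, 31, 40 and 27 of the 51 genes were above their own mean, in peer animals 46, 40, 25 and 42, and in maternal animals 31, 17, 19, 12 and 4.

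Maternal animals also varied more among themselves. The median SD of a splicing gene was 0.14 in surrogate-peer, 0.10 in peer and 0.23 in maternal animals, and over all tested genes it was 0.15 in surrogate-peer, 0.14 in peer and 0.23 in maternal animals. For 40 of 51 genes (78.4%) the SD was highest in the maternal group, as it was for 62.3% of all tested genes. The fit used 1 shared estimate of the spread, which is too small where maternal values vary more.

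**Figure D4:**
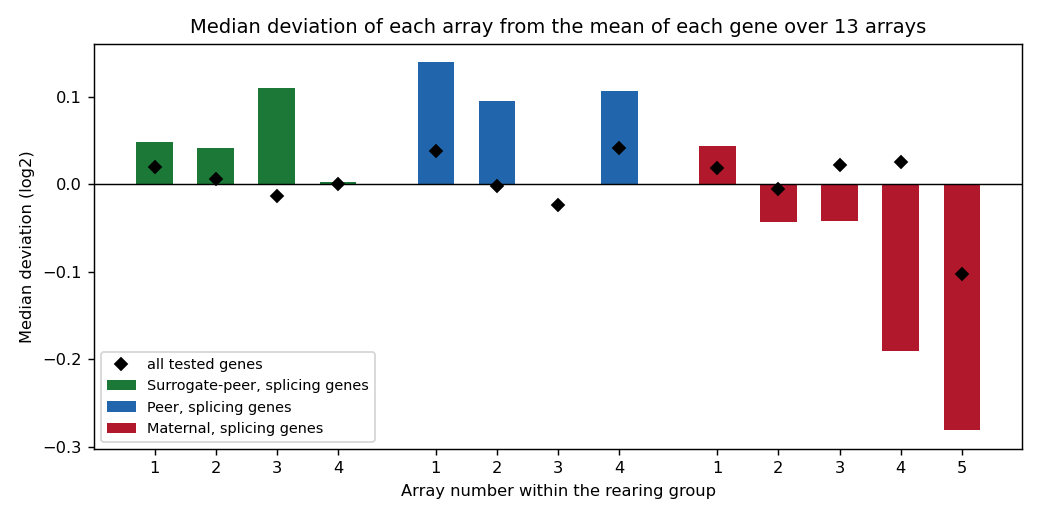
Median over the 51 tested splicing genes of the log2 value minus the mean of the gene over 13 arrays, as 1 bar per animal in surrogate-peer, peer and maternal groups; diamonds show the same over all tested genes. Maternal animals 4 and 5 reach -0.19 and -0.28, and maternal animal 1 reaches 0.04.

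The number of calls changed with single animals, and the direction of the 7 genes did not. The 7 were picked by their calls in these same arrays, so their unchanged direction is not independent support. Without maternal animal 4, 0 of 51 genes were called, beside 0.110% of all tested probe sets, and the log2 fold changes of the 7 genes lay between 0.29 and 0.56. Without maternal animal 5, 0 were called, beside 0.216% of all tested probe sets, and the 7 values lay between 0.23 and 0.61. Without maternal animal 1, 18 genes were called, the 7 among them, beside 18.3% of all tested probe sets. Leaving out peer animal 1 left SRSF10 alone, 1.96% of the 51 genes, beside 1.18% of all tested probe sets. The other single omissions left between 2 and 6 calls, with 497 to 1384 of the 26352 tested probe sets called. Under all 23 alternatives the log2 fold change of SRSF10 stayed between 0.27 and 0.49 and that of SRSF5 between 0.49 and 0.71. SRSF10 lost its call in 4 of them and SRSF5 in 6, whereas SF3A3 lost its call in 20, SRSF6 in 18, PRPF38A in 17 of 22 and HNRNPH3 in 16. HNRNPM lost its call in 8. None of the 7 turned negative in any of these: SF3A3 ran from 0.20 to 0.43, SRSF6 from 0.40 to 0.63, PRPF38A from 0.30 to 0.61, HNRNPH3 from 0.20 to 0.59 and HNRNPM from 0.22 to 0.52.

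RNA quality and cell markers moved with the groups. With the 3' to 5' ratio as a covariate in the limma fit, 0 of the 7 genes were called. SRSF5 then had a log2 fold change of 0.49 (adjusted p = 0.150), SRSF10 0.27 (0.171), HNRNPH3 0.20 (0.436), SRSF6 0.50 (0.167), HNRNPM 0.40 (0.0795), PRPF38A 0.48 (0.115) and SF3A3 0.42 (0.0626). HNRNPUL2 and SF3B3 were called there instead, 3.92% of the 51 genes beside 5.94% of all tested probe sets. Centring each array on its median left 3 genes called, HNRNPM, SRSF10 and SRSF5, and quantile normalization left HNRNPH3, SRSF10 and SRSF5. In both, 5.88% of the 51 genes were called, beside 7.32% of all tested probe sets after centring and 5.07% after quantile normalization. Of all called probe sets 83.1% were higher as deposited, against 56.7% after centring and 66.3% after quantile normalization.

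**Figure D5:**
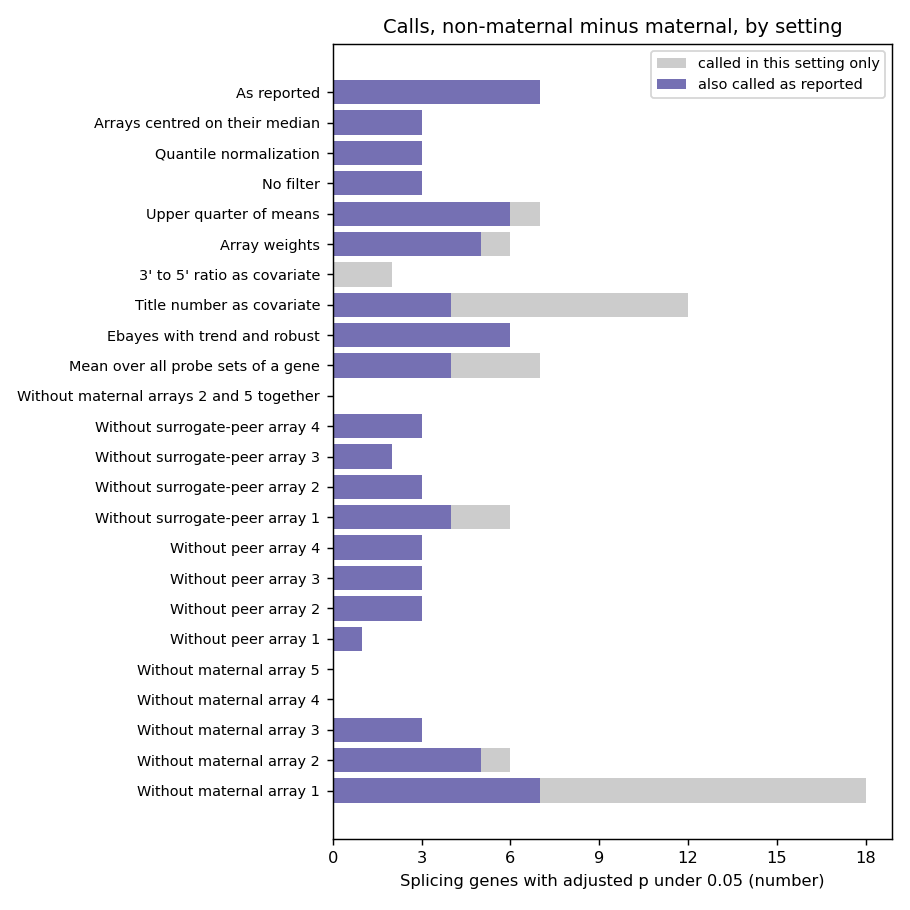
Number of splicing genes with an adjusted p under 0.05, non-maternal against maternal, as reported and under each alternative or without each array; purple counts genes also called as reported and grey counts genes called in that setting only. The count is 7 as reported, 18 without maternal array 1 and 0 without maternal array 4 or 5.

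The mean deviation of 9 T cell markers ran from -0.05 to 0.36 in surrogate-peer, from 0.02 to 0.33 in peer and from -0.56 to -0.003 in maternal animals, and 1 of the 9 genes, BCL11B, rose. That of 14 NK and cytotoxic markers ran from -0.75 to 0.46 in surrogate-peer, from -0.64 to 0.31 in peer and from -0.09 to 0.81 in maternal animals, with NCAM1 called higher and 5 lower: GZMB, GZMH, CST7, FCGR3 and NKG7. That of 9 B cell markers ran from -1.15 to -0.18 in surrogate-peer, from -0.29 to 0.54 in peer and from 0.03 to 0.99 in maternal animals, with 1 called lower, FCRLA. That of 12 monocyte markers ran from -0.52 to 0.51 in surrogate-peer, from -0.55 to 0.17 in peer and from -0.44 to 0.84 in maternal animals, with 1 called lower, MS4A7. Non-maternal against maternal, all 9 T cell markers had positive log2 fold changes, with a median of 0.63. All 9 B cell markers were negative (median -0.70), as were 12 of 14 NK and cytotoxic (median -0.84) and 9 of 12 monocyte markers (median -0.25). Negative too were 8 of 8 platelet (median -0.30), 8 of 10 proliferation (median -0.15) and 2 of 3 neutrophil markers (median -0.25). Of these platelet, proliferation and neutrophil markers 0 were called, beside 7.98% of all tested genes. An unadjusted p under 0.05 (limma) was found for 6 T cell, 6 B cell, 9 NK and cytotoxic and 5 monocyte markers. Over all tested genes that share was 29.7%. Calls made up 11.1% of the T cell, 11.1% of the B cell and 8.33% of the monocyte markers. These shares are near the 7.98% of all tested genes, while that of the NK and cytotoxic markers was 42.9%. Positive log2 fold changes made up 50.7% of all tested genes. The part of these markers in the splicing results was not tested.

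Splicing proteins outside the symbol rule were read from 5 other lists. Of their 85 tested genes, 7 were called higher and 2 lower, 10.6% in all, which is near the 7.98% of all tested genes. Their median log2 fold change was 0.12, beside 0.005 over all tested genes. Of the 85 values 58 were positive, beside 50.7% over all tested genes. The proteins of the activation and exon junction complexes had 4 of 22 called higher and 1 lower (22.7%, beside 7.98% of all tested genes). In the limma fit PLRG1, a partner of PRPF19, rose by 0.53 ± 0.12 (SE, adjusted p = 0.0310), ISY1 by 0.45 ± 0.11 (adjusted p = 0.0335) and CWC15 by 0.37 ± 0.09 (adjusted p = 0.0289), while the helicase DHX8 had -0.49 ± 0.11 (adjusted p = 0.0284). CWC22 was the remaining one called higher, at 0.36, and its probe set is marked as sharing probes between transcripts. All non-maternal animals lay above all maternal ones for PLRG1, ISY1 and CWC15, as they did for 1.58% of all tested genes.

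Other regulatory RNA-binding proteins had 2 of 22 called higher (9.09%, beside 6.30% of all tested genes). They were SFPQ, a paraspeckle protein that also acts in splicing, at 0.59 ± 0.13 (SE, limma adjusted p = 0.0260) and the polypyrimidine tract binding protein PTBP2 at 0.46 ± 0.13 (adjusted p = 0.0458). Of 16 SR-related proteins, kinases and branch point factors, 1 (6.25%) was called: SCAF4 rose by 0.38 ± 0.11 (SE, limma adjusted p = 0.0475). The SCAF4 probe set is marked as sharing probes between transcripts. Of 18 genes in a list of further snRNP proteins, their partners and relatives, 1 (5.56%) was called. TXNL4B fell, with a log2 fold change of -0.53 ± 0.09 (SE, limma adjusted p = 0.0203). For TXNL4B all non-maternal animals lay below all maternal ones, as they did for 1.06% of all tested genes. Of 7 LSM proteins, which form rings like the Sm proteins, 0 were called, with LSM5 at 0.32 (limma adjusted p = 0.103) having the smallest p.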

How the data were processed

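Values were the deposited log2 expression values per probe set, made with RMA per the submitters' processing notes. The sources used here do not give the version or settings, or say whether the 13 arrays were normalized together. Precision is limited by the number of arrays. After 158 control probe sets were set aside, testing was restricted to those with a 13-array mean above 6.04, the median of such means. Symbols came from the platform annotation; 24956 probe sets had 1 symbol, 361 several and 27390 none.

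Groups were compared with limma 3.58.1 in R 4.3.3 (lmFit and eBayes, 1 fit over 13 arrays), with two-sided Benjamini-Hochberg adjusted p-values over 26352 probe sets and a threshold of 0.05; errors are standard errors of the fit unless given as SD. The fit was run on simulated data with independent noise and the same spread in every group. That run therefore does not cover the wider spread of maternal animals or genes that vary together. Named were up to 10 called genes per direction, otherwise the 5 with the smallest p, a fixed set of well known splicing genes, and genes whose probe sets disagreed. Other values are named for their place in a family and were chosen after they were seen. Members, lists and rules were chosen with earlier results of these data known. The 3' to 5' ratio is the log2 difference between both ends of a control transcript, averaged over actin and GAPDH. A marker score is the mean deviation of the markers from their own means. Alternatives changed the scaling, the filter, the array weights, the groups in the fit, the covariate, the variance model, the probe set rule and the arrays included.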

Additional observations from a re-analysis of the deposited data

Results flagged for a closer look

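In 159 groups of 4 or 5 values, 156 of single genes and 3 of the median deviation of an array, 7 had a lowest or highest value set apart from the others by Dixon's test, which by chance sets apart about 1 group in 20. Maternal animal 5 held 4 of them. Its log2 value was 8.87 for SF3B4, with the nearest maternal value at 9.20. For SF3B5 it was 9.86, with the nearest at 10.33. For SNRPB it was 9.12, with the nearest at 9.37. For U2AF2 it was 9.94, with the nearest at 10.25. Surrogate-peer animal 1 had 7.85 for SRSF11, where the nearest value of its group was 8.26. Peer animal 4 had 10.70 for HNRNPD, where the nearest was 10.86. Maternal animal 1 had 5.240 for SRSF12, above the nearest maternal value of 4.72, at a probe set too dim to be tested. None of the other 6 genes was called at its brightest probe set.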

How the results depend on the processing

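For non-maternal against maternal animals, 7 genes were called as reported. The count was 3 with arrays centred on the medians of their tested probe sets (5.88% of the genes, beside 7.32% of all tested probe sets). It was 3 after quantile normalization (5.88%, beside 5.07%) and 3 with no filter (5.77%, beside 2.78%). It was 2 with the 3' to 5' ratio as covariate (3.92%, beside 5.94%). The count was 12 with the number in the sample title as covariate (23.5%, beside 11.9%). It was 0 without maternal arrays 2 and 5 together, beside 0.140% of all tested probe sets, as it was without array 5 alone. The 7 log2 fold changes there lay between 0.20 and 0.66; that setting was chosen after seeing the data. The count ran from 0 to 18 when single arrays were left out. The 18 (35.3%, beside 18.3% of all tested probe sets) came without maternal array 1. Peer against maternal gave 0 as reported, beside 0.353% of all tested probe sets. It gave 4 with array weights (7.84% of the genes, beside 5.86%) and 2 with the 3' to 5' ratio (3.92%, beside 5.48%). With the title number it gave 6 (11.8%, beside 6.90%). With the mean over all probe sets of a gene it gave 1 (1.96%, beside 2.03% of 8787 genes). Without single arrays it ran from 0 to 11, the 11 (21.6%, beside 13.2%) without maternal array 1. Without single arrays, surrogate-peer against maternal ran from 0 to 5 and the F test from 0 to 7. Both highest counts came without maternal array 1. They made 9.8% of the genes beside 7.96% of all tested probe sets, and 13.7% beside 8.82%. With the title number the F test gave 2 (3.92%, beside 2.84%). With the title number the median log2 fold change was 0.31 for surrogate-peer against maternal and 0.12 for surrogate-peer against peer. Without single arrays the medians ran from 0.15 to 0.26 for non-maternal, from 0.18 to 0.27 for peer and from 0.15 to 0.23 for surrogate-peer against maternal, and from -0.07 to -0.01 for surrogate-peer against peer. The causes were not tested.

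Genes not called at their brightest probe set changed sign in places. For non-maternal against maternal, SNRPB was -0.026 after quantile normalization. With the 3' to 5' ratio HNRNPD was -0.015, PRPF40B 0.051, PRPF6 0.133, SF3B5 0.221 and U2AF2 0.127. With the title number PRPF40B was 0.008, SF3A1 0.003, SF3B5 0.078 and U2AF2 0.067. With the mean over probe sets PRPF40B was 0.014, SF3B5 0.230 and U2AF2 0.001. Without maternal arrays 2 and 5 PRPF19 was -0.145, SNRPB -0.009 and SNRPN -0.089. For peer against maternal, PRPF40B was 0.034, PRPF6 0.057 and SF3B2 0.100 with the 3' to 5' ratio, SF3B2 was 0.012 with the title number and PRPF40B 0.018 with the mean over probe sets. For surrogate-peer against maternal, PRPF40B was 0.068, PRPF6 0.209, SF3B5 0.241 and U2AF2 0.080 with the 3' to 5' ratio. It had 0.034 for PRPF40B, 0.123 for SF3B5 and 0.062 for U2AF2 with the title number, and 0.010 for PRPF40B and 0.194 for SF3B5 with the mean over probe sets. For surrogate-peer against peer, SF3B4 was 0.140 and SNRPC 0.076 with the title number. Without single arrays, non-maternal against maternal ran from -0.021 to 0.212 for PRPF19, from -0.115 to 0.043 for PRPF6 and from -0.129 to 0.017 for SF3B5. Peer against maternal ran from -0.156 to 0.009 for PRPF6 and from -0.070 to 0.033 for SF3B2, and surrogate-peer against maternal from -0.081 to 0.077 for PRPF6.

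The meaning of the title number is not stated. Fitting only the groups compared gives no other value for the comparison that uses all 13 arrays. No paired analysis was possible because the labels give no replicate numbers that groups share.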
